A study of Mus musculus with 22 samples.

Results

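The genes that fold proteins in the endoplasmic reticulum (ER), the factors that sense and relieve ER stress, and the heat shock genes of the cytosol and mitochondria were followed in microglia of the mouse retina. The 37 genes were taken by name from a list, out of 35564 genes quantified, and fall into 15 ER chaperones and folding enzymes, 11 factors of the unfolded protein response (UPR) and of ER-associated degradation (ERAD), and 11 heat shock genes. All 37 passed the filter on low counts, as did 12407 genes in all. The 22 RNA-seq libraries came from 12-week-old mice whose eyes had received apoptotic neurons, and cells were profiled 24 hours later. The 4 groups were phagocytic cells of Apoe-/- mice (strain given as Apoe KO, 6 pools), non-phagocytic cells of Apoe-/- mice (6 pools), phagocytic cells of wild-type C57BL/6 mice (5 pools) and non-phagocytic cells of wild-type C57BL/6 mice (5 pools). All mice of all groups had the injection, so no group shows untreated retina. Apoe-/- mice lack apolipoprotein E, a lipid carrier. Cells were sorted as CD11b+, Ly6c– and Fcrls+, and the fluorescence of Alexa488 then parted phagocytic from non-phagocytic cells. A pool joined 5 to 6 retinas of mice of the same sex and genotype, and 100 to 500 phagocytic cells were taken for it. The sex of a pool was not used here.

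Newly made secreted and membrane proteins are folded in the ER by chaperones such as Hspa5 (BiP) and by disulfide isomerases. When unfolded proteins build up, the sensors Ern1 (Ire1), Eif2ak3 (Perk) and Atf6 start the UPR: Xbp1 and Atf6 induce chaperone and ERAD genes, while Perk signalling raises translation of Atf4, which induces Ddit3 (Chop) and Trib3. In the cytosol the transcription factor Hsf1 induces Hspa1a, Hspa1b, Dnajb1, Hsph1 and other heat shock genes when proteins unfold, whereas Hspa8 and Hsp90ab1 are made at high levels in unstressed cells. Microglia are the resident macrophages of retina and brain and take up dying neurons, whose proteins and lipids they then break down. Heat shock genes and immediate early genes are also known to be induced while cells are being isolated from tissue.

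Promoter sequences are shown first because the 3 classes differ in the known elements they hold. The windows are taken from RefSeq promoters on GRCm38.p6, which run from 250 bases before to 50 bases after the start site. Of the 37 genes 30 were in that set, the others being Manf, Hyou1, Atf6, Hspa8, Hsp90aa1, Hsp90ab1 and Hsf1. The ER stress element was searched as CCAAT and CCACG with any 9 bases between them, the ER stress element II as ATTGG and CCACG with any 1 base between them, and the heat shock element as GAA, TTC and GAA with any 2 bases between each, all on both strands. The first pair share the letters CCACG and a CCAAT box but differ in order and spacing, and no gene below is counted for both. The ER stress element stood in 8 of the 30 genes, namely 7 of 13 ER chaperones (Hspa5, Hsp90b1, Calr, Canx, Pdia6, Dnajc3, Creld2) and 1 of 10 UPR and ERAD factors (Syvn1), and in 0.137% of 27025 genes. The ER stress element II stood in Dnajb11 and Herpud1 and in 0.0444% of all genes. The heat shock element stood in 3 of 7 heat shock genes, Hsph1, Hspe1 and Hspd1, and in 0.662% of all genes. The matches of Hspe1 and Hspd1 are the same sites on chr1, read from opposite strands, so that locus is counted for both genes. A match is a description of the letters, and its absence from a window says nothing about a factor. The sequences below are those of genes to which the expression results turn, with Syvn1 as the only UPR or ERAD factor with the first element and Hspe1 as a gene whose start lies opposite that of Hspd1. Each is written 5′ to 3′ on the strand of the gene, with the element, or its reverse complement, in capitals.
Hspa5, chr2:34772010-34772058, + strand, element from 65 bases before the start: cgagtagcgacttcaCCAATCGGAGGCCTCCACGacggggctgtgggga
Creld2, chr15:88819505-88819553, + strand, element reversed, from 126 bases before the start: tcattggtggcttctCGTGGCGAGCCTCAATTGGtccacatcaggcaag
Syvn1, chr19:6046517-6046565, + strand, element from 44 bases before the start: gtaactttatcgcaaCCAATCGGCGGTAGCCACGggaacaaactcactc
Herpud1, chr8:94386362-94386402, + strand, element II from 52 bases before the start: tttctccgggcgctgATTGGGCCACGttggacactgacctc
Dnajb11, chr16:22857843-22857871, + strand, element II from base 8 of the transcript: ccggcggcgATTGGCCCACGcctggctgc
Hsph1, chr5:149636287-149636308, - strand, heat shock element reversed, from base 37 of the transcript: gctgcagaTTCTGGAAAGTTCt
Hspe1, chr1:55088049-55088091, + strand, heat shock element from 84 bases before the start: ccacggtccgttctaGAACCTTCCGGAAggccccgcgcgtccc

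Libraries held 1133577 to 3649436 estimated reads, and reads given to 12 satellite-like repeat genes took 9.14% to 51.7% of them. The targeted gene checked the labels: Apoe had 7.02 to 34.9 CPM (counts scaled to library size) in the 12 Apoe-/- libraries, against 869 to 5146 CPM in the 10 wild-type libraries. All 10 microglia markers were detected, with summed levels of 5507 to 15305 CPM in Apoe-/- phagocytic pools, 7020 to 17590.3 CPM in Apoe-/- non-phagocytic pools, 5472 to 17254 CPM in wild-type phagocytic pools and 5400 to 19072 CPM in wild-type non-phagocytic pools. Markers of other cells were present too. The 7 photoreceptor markers summed to between 1016 and 7532 CPM over all pools, with overlapping ranges in the 4 groups. The 6 markers of border macrophages summed to 76.3 to 219 CPM in Apoe-/- phagocytic pools against 13.5 to 55.5 CPM in Apoe-/- non-phagocytic pools, and to 180 to 541 CPM in wild-type phagocytic pools against 42.0 to 77.5 CPM in wild-type non-phagocytic pools, so they run with the sort in both genotypes. Of the 5 dendritic cell markers tested, 5 had lower estimates in phagocytic than in non-phagocytic cells in each genotype, with medians of -1.01 in Apoe-/- mice and -1.98 in wild-type mice on the log2 scale. The sums over all 7 dendritic cell markers listed, tested or not, were 26.7 to 105 CPM in Apoe-/- phagocytic pools against 61.3 to 145 CPM in Apoe-/- non-phagocytic pools. They were 11.3 to 57.3 CPM in wild-type phagocytic pools against 23.1 to 341 CPM in wild-type non-phagocytic pools. Between genotypes in phagocytic cells, 6 of 6 monocyte markers had lower estimates in Apoe-/- mice, with a median of -1.77 and sums of 68.5 to 299.8 CPM in Apoe-/- pools against 126 to 882 CPM in wild-type pools. Of the 7 photoreceptor markers, 7 had higher estimates in Apoe-/- mice in each fraction, with medians of 0.61 in phagocytic and 0.46 in non-phagocytic cells. The part of these other cells in the results was not tested. In such bulk samples, fewer cells of a type and less RNA per cell cannot be told apart.

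Levels between genes were compared in TPM, which is per transcript length, over all 22 libraries. Hspa8, the constitutive cytosolic Hsp70, averaged 1621 TPM and Hsp90ab1, the constitutive cytosolic Hsp90, averaged 1482 TPM. Hspa8 was the higher of the pair in 13 of 22 libraries, so their order was not fixed. Hspa5 followed with 694 TPM, then the disulfide isomerase Pdia3 with 478 TPM, the lectin chaperone Calr with 424 TPM and the ER Hsp90, Hsp90b1, with 394 TPM. Of the ER chaperones 12 of 15 averaged over 100 TPM, against 3 of 11 UPR and ERAD factors and 6 of 11 heat shock genes. The 3 UPR factors above that level were Herpud1, a membrane protein of the ERAD complex (224 TPM), and the transcription factors Atf4 (134 TPM) and Xbp1 (128 TPM). The 3 ER stress sensors were low, at 6.98 TPM for Atf6, 6.93 TPM for Ern1 and 3.85 TPM for Eif2ak3, and Trib3, a pseudokinase induced late in the response, was the lowest gene of all at 3.33 TPM and at 0 in 1 library. Among the Hsp70 genes, the stress-inducible Hspa1a averaged 61.1 TPM and its near copy Hspa1b averaged 6.44 TPM. Transcripts of these copies share 63.8% (Hspa1a) and 67.6% (Hspa1b) of their stretches of 31 bases, so the split of reads between them is uncertain. Spliced and unspliced Xbp1 mRNA were not told apart here.

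**Figure D1:**
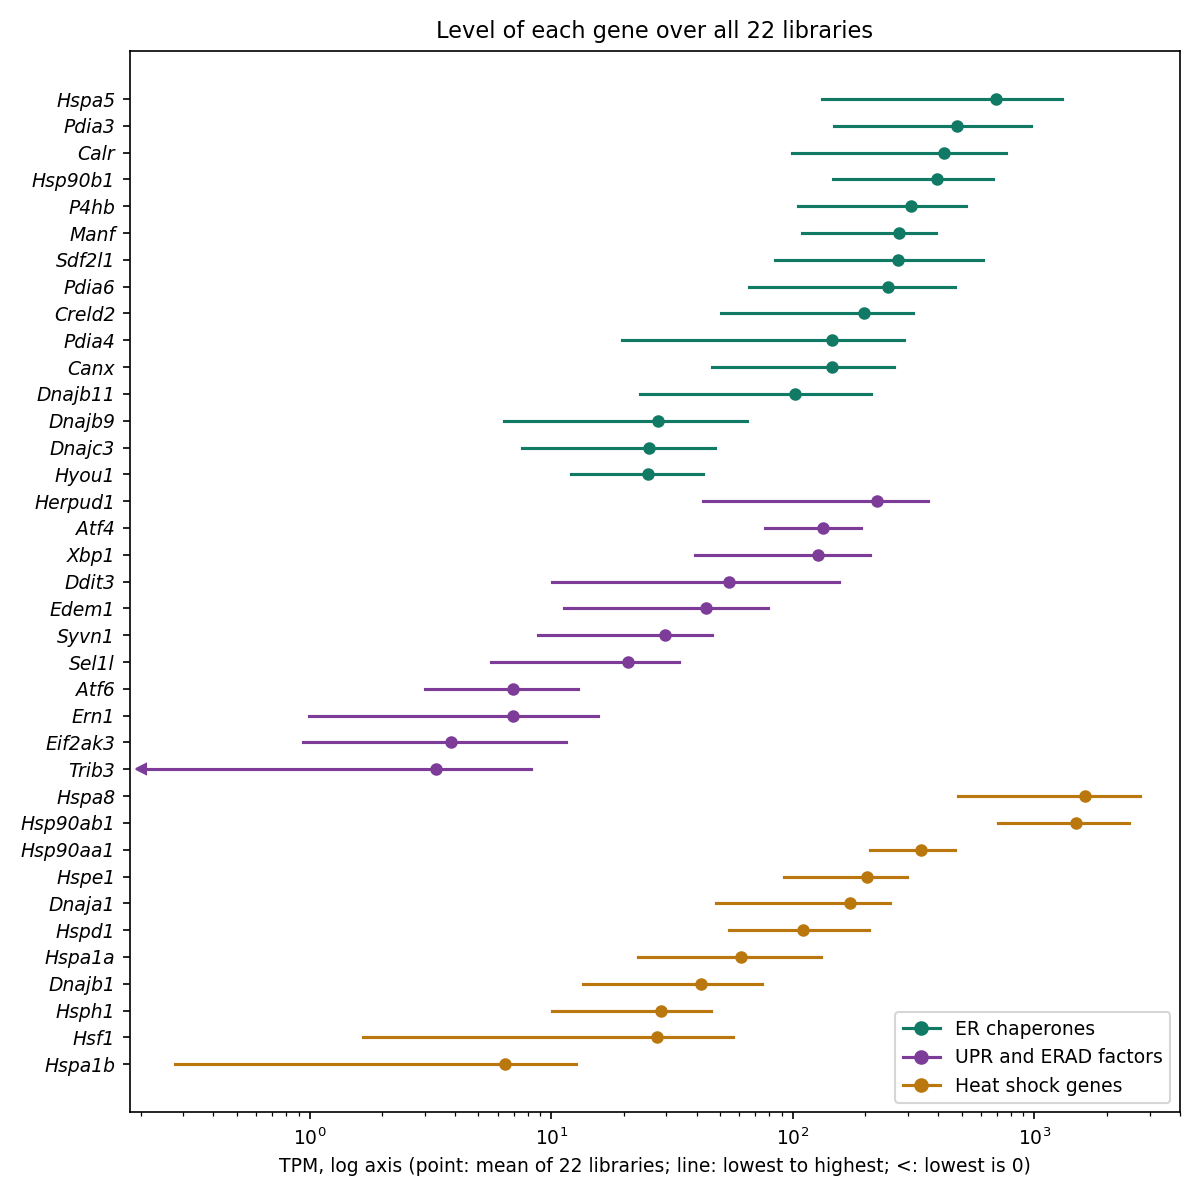
Level of each of the 37 genes in TPM on a log axis, grouped by class, with the mean over 22 libraries as a point and the lowest to the highest library as a line. Hspa8 and Hsp90ab1 lie highest at means of 1621 and 1482 TPM, and Trib3 lies lowest at 3.33 TPM, with 1 library at 0.

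None of the 37 genes passed the threshold in any of the 5 comparisons, with edgeR's quasi-likelihood test and Benjamini-Hochberg adjustment over all 12407 genes at 0.05. For phagocytic over non-phagocytic cells, 0 of 37 were called in Apoe-/- mice, where 0.492% of all genes were called, and 0 of 37 in wild-type mice, where 0.201% were. For Apoe-/- over wild-type, 0 of 37 were called in phagocytic cells beside a background of 0.0322%, and 0 of 37 in non-phagocytic cells beside 0.0161%. The genotype difference in the sort effect was called for 0 of 37 genes and for 0% of all genes. With so few of all genes called, a count of 0 among 37 is not a result about these genes. Genes at an unadjusted p under 0.05 numbered 3 for the sort in Apoe-/- mice (9.92% of all genes), 1 for the sort in wild-type mice (7.75%), 3 for genotype in phagocytic cells (6.63%), 1 for genotype in non-phagocytic cells (3.8%) and 0 for the difference in the sort effect (2.43%). DESeq2 called Creld2 for the sort in Apoe-/- mice (5.34% of the genes it gave an adjusted p, which did not include Ern1, Eif2ak3, Ddit3, Trib3 and Hspa1b) and Hspa8 for genotype in phagocytic cells (0.156%). It called none of the 37 for the sort in wild-type mice (0.791%), for genotype in non-phagocytic cells (0.00619%) or for the difference in the sort effect (0.00619%). The groups did not overlap for Creld2 in the Apoe-/- sort (0.862% of all genes), Dnajb11 and Dnajb1 in the wild-type sort (2.15%) and Hspa8 between genotypes in phagocytic cells (0.79%), and for no gene of the 37 between genotypes in non-phagocytic cells (0.298% of all genes). The p-values set a difference against the spread between pools within a group. Whether phagocytic and non-phagocytic pools of a genotype share retinas is not stated in the labels.

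In both genotypes 14 of the 15 ER chaperones had a higher estimate in phagocytic than in non-phagocytic cells. The median log2 fold change of the 15 was 0.21 in Apoe-/- mice and 0.17 in wild-type mice, where the medians over all genes tested were -0.02 and -0.01 and the shares of genes with a positive estimate were 47.7% and 49.2%. The exception in both was Dnajb9, a co-chaperone of Hspa5 that restrains Ire1, at -0.26 in Apoe-/- mice and -0.25 in wild-type mice. No ER chaperone was called in either comparison, and 1 gene in each genotype had an unadjusted p under 0.05, Creld2 in Apoe-/- mice and Dnajb11 in wild-type mice. The Apoe-/- count is smaller without 2 pools: leaving out Apoe-/- non-phagocytic pools 2 and 5, whose satellite-like share was 51.7% and 47.6%, it was 9 of 15 with a median of 0.05. Single pools moved the medians too: the Apoe-/- median was 0.11 without Apoe-/- non-phagocytic pool 2 and 0.13 without Apoe-/- non-phagocytic pool 5, with 12 of 15 positive each. The wild-type median was 0.075 with 13 of 15 positive without wild-type phagocytic pool 2, 0.093 with 12 of 15 without wild-type non-phagocytic pool 4, and 0.11 with 12 of 15 without wild-type non-phagocytic pool 5. On the scale of the authors' FPKM values (pseudocount 0.1) it was 0.097 with 12 of 15 positive.

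Creld2, an ER protein that is secreted in part and induced by ER stress (chr15:88819646-88826683), separated the sorted fractions of Apoe-/- mice. It had 255, 293 and 328 CPM (lowest, median, highest) in the 6 Apoe-/- phagocytic pools, against 145, 214 and 252 CPM in the 6 Apoe-/- non-phagocytic pools. Every phagocytic pool lay above every non-phagocytic pool, as was so for 0.862% of all genes in one direction or the other. The log2 fold change was 0.50 ± 0.16 (SE), with an unadjusted p of 0.00319 and an adjusted p of 0.186 by edgeR and of 0.0203 by DESeq2. The edgeR adjustment covered 12407 genes and that of DESeq2 3499 genes, so these adjusted p-values are not alike. Over all alternatives the adjusted p ran from 0.0203 to 0.637. In the wild-type retina Creld2 had 241, 309, 360.1, 345 and 290.0 CPM in phagocytic pools 1 to 5, against 235, 292, 263, 242 and 227 CPM in non-phagocytic pools 1 to 5. There 3 of 5 phagocytic pools lay above all non-phagocytic pools, the log2 fold change was 0.30 ± 0.17 and the adjusted p was 0.742. The sort effects of the genotypes differed by 0.21 ± 0.23 on the log2 scale, with an interval of -0.25 to 0.67 (estimate ± 2 SE), so a difference between genotypes was not shown.

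Dnajb11, a co-chaperone of Hspa5 in the ER lumen (chr16:22857845-22879634), had 66.3, 141 and 279 CPM (lowest, median, highest) in Apoe-/- phagocytic pools and 86.8, 136 and 213 CPM in Apoe-/- non-phagocytic pools. In wild-type mice it had 352, 354, 349.8, 232 and 257 CPM in phagocytic pools 1 to 5 and 171, 189.9, 229, 180.5 and 182 CPM in non-phagocytic pools 1 to 5. Wild-type phagocytic pools were all above wild-type non-phagocytic pools, as for 2.15% of all genes in one direction or the other, and 5 of 6 Apoe-/- phagocytic pools lay below all wild-type phagocytic pools. Apoe-/- over wild-type in phagocytic cells gave a log2 fold change of -1.07 ± 0.28, an unadjusted p of 0.00069 and an adjusted p of 0.295. The exception among the Apoe-/- phagocytic pools was pool 1 at 279 CPM, and without it the log2 fold change was -1.36 with an adjusted p of 0.0165. With no filter on low counts the adjusted p was 0.00988, and over all alternatives it ran from 0.00988 to 0.589. In non-phagocytic cells the genotype estimate was -0.45 ± 0.28 with an adjusted p of 0.999, and 5 of 6 Apoe-/- pools lay below all wild-type pools. For the sort, the wild-type estimate was 0.70 ± 0.29 (adjusted p of 0.550) and the Apoe-/- estimate was 0.08 ± 0.27 (adjusted p of 0.972). The difference between these sort effects was -0.61 ± 0.39, with an interval of -1.40 to 0.17.

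Between genotypes the ER chaperones had lower estimates in Apoe-/- cells. In phagocytic cells 14 of 15 were below 0 with a median log2 fold change of -0.19, and in non-phagocytic cells 15 of 15 were below 0 with a median of -0.28, where 50.5% and 50.2% of all genes were below 0. Without Apoe-/- non-phagocytic pool 2, the median in non-phagocytic cells was -0.18 with 2 of 15 positive, and it was -0.19 with 3 of 15 positive without either of wild-type non-phagocytic pools 2 and 3. No ER chaperone was called in either comparison. The comparisons share no library, but the sort comparisons above use the same libraries, so the 4 sets of estimates are not independent. Hspa5 (chr2:34771970-34777547), the central ER Hsp70, had 1093, 1533 and 1914 CPM in Apoe-/- phagocytic pools, against 1926, 1849.6, 1970.1, 1609 and 1543 CPM in wild-type phagocytic pools 1 to 5. The ranges overlapped, with 4 of 6 Apoe-/- pools below all wild-type pools, and the log2 fold change was -0.28 ± 0.23 with an adjusted p of 0.850. In non-phagocytic pools Hspa5 had 685, 1259 and 2026 CPM in Apoe-/- mice and 1142, 2005, 1849.9, 1611 and 1815 CPM in wild-type mice, with a log2 fold change of -0.32 ± 0.23 and an adjusted p of 0.999. Sdf2l1, part of the Hspa5 complex that keeps misfolded proteins soluble, had 198, 248 and 336 CPM in Apoe-/- phagocytic pools, against 313, 459, 389.7, 277 and 234 CPM in wild-type phagocytic pools 1 to 5. In non-phagocytic pools it had 165, 225 and 312 CPM in Apoe-/- mice, against 261, 443, 365, 263 and 205 CPM in wild-type mice. The ranges overlapped in both fractions. Its log2 fold changes were -0.40 ± 0.22 in phagocytic and -0.41 ± 0.22 in non-phagocytic cells, with adjusted p-values of 0.798 and 0.999. Leaving out wild-type pool 2 of the fraction gave -0.26 in phagocytic and -0.23 in non-phagocytic cells. Pdia3, a disulfide isomerase of glycoproteins, had 703, 962 and 1191 CPM in Apoe-/- phagocytic and 651, 933 and 1135 CPM in Apoe-/- non-phagocytic pools. It had 1039.8, 1232, 1228, 704 and 862 CPM in wild-type phagocytic pools 1 to 5 and 822, 1364, 1202, 617 and 696 CPM in wild-type non-phagocytic pools 1 to 5. All 4 groups overlapped, and its genotype estimates were -0.09 ± 0.22 in phagocytic and -0.04 ± 0.22 in non-phagocytic cells. Pdia4, another isomerase, reached -0.39 ± 0.25 in non-phagocytic cells, P4hb, the most studied of the family, -0.30 ± 0.17 in phagocytic cells, and Canx, the membrane-bound lectin chaperone, was the exception above 0 in phagocytic cells at 0.02 ± 0.20.

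**Figure D2:**
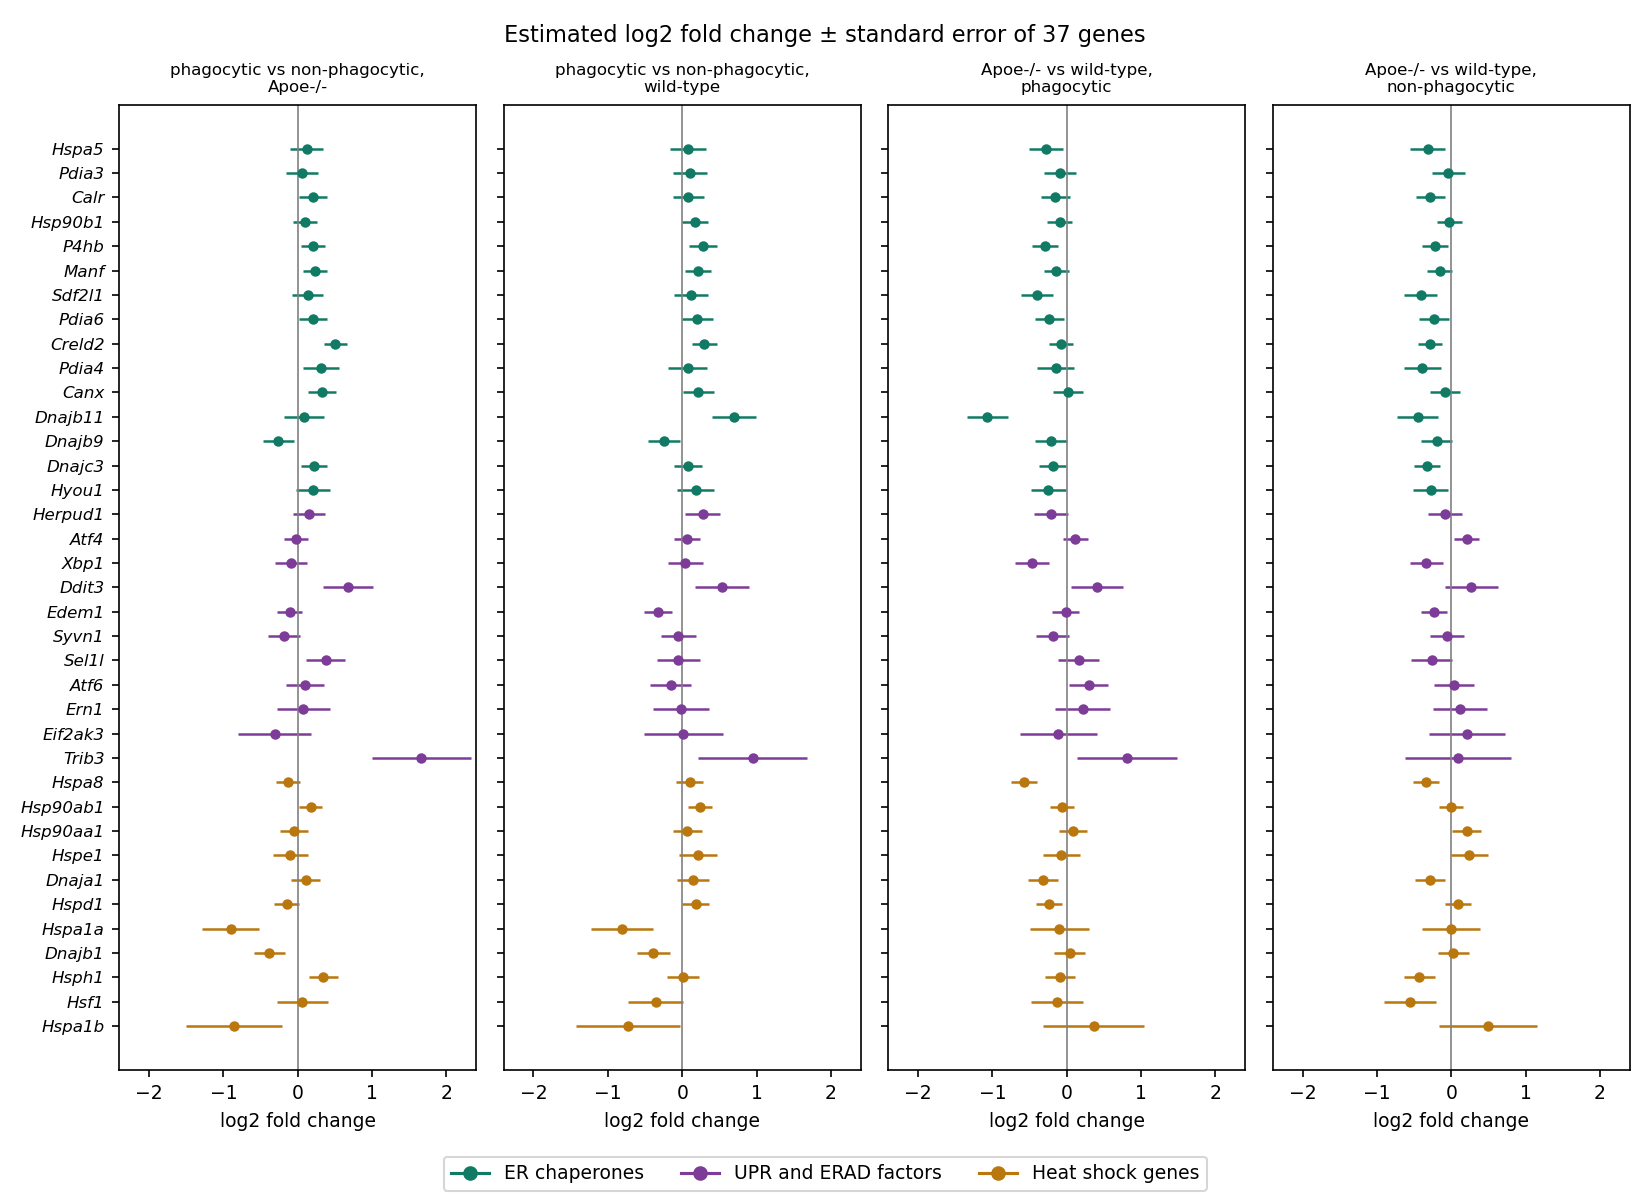
Log2 fold change ± standard error of each of the 37 genes (rows, by class) in the 4 comparisons of 2 groups (panels). In the sort comparisons 14 of 15 ER chaperones lie right of 0 in each genotype, and in the genotype comparisons 14 of 15 (phagocytic) and 15 of 15 (non-phagocytic) lie left of 0, while the UPR factors and heat shock genes lie on both sides.

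The pools with the highest shares of satellite-like reads had the lowest ER chaperone sums, but the order did not hold throughout. Summed over the 15 genes, their level was 6559 to 8747 CPM in Apoe-/- phagocytic, 5006 to 8493 CPM in Apoe-/- non-phagocytic, 7761 to 10119 CPM in wild-type phagocytic and 6756 to 9983 CPM in wild-type non-phagocytic pools. The lowest sums of all were 5006 and 5897 CPM in Apoe-/- non-phagocytic pools 2 and 5, with satellite-like shares of 51.7% and 47.6%. Within the wild-type non-phagocytic group, pools 2 and 3 had shares of 9.94% and 9.14% and sums of 9983 and 9754 CPM, and pools 1, 4 and 5 had shares of 27.4%, 28.4% and 27.3% and sums of 6950.0, 6756 and 7188 CPM. Among Apoe-/- phagocytic pools, pool 5 had the lowest sum, 6559 CPM, at a share of 24.4%, while pools 2 and 6 had 7394 and 7694 CPM at 36.9% and 33.8%. Wild-type phagocytic pools 1, 4 and 5 had shares of 19.3%, 20.6% and 19.5% and sums of 9727, 7761 and 7878 CPM. With that share as a covariate, the genotype estimates were positive for 5 of 15 ER chaperones with a median of -0.05 in phagocytic cells, and for 3 of 15 with a median of -0.12 in non-phagocytic cells. Leaving out Apoe-/- non-phagocytic pools 2 and 5 gave 3 of 15 and -0.12 in non-phagocytic cells as well. With the covariate, the sort estimates were positive for 13 of 15 genes with a median of 0.13 in Apoe-/- mice and for 14 of 15 with a median of 0.14 in wild-type mice. On the scale of the authors' FPKM values, the median over all genes was -0.16 for genotype in non-phagocytic cells (pseudocount 0.1), and that of the ER chaperones was -0.51. In phagocytic cells these medians were -0.08 and -0.27, and no ER chaperone had a positive estimate on that scale in either fraction. Summed microglia markers partly followed the ER chaperone sums. They were highest, at 19072 and 17787 CPM, for pools 2 and 3 of the wild-type non-phagocytic group. Its pools 1, 4 and 5 held 9461, 5400 and 9147 CPM. Apoe-/- phagocytic pool 5 was lowest of its group in both, with 5507 CPM of markers. Among Apoe-/- non-phagocytic pools the order differed. Pool 1 led in markers, at 17590.3 CPM, and pool 4 in ER chaperones. Between genotypes, 9 of the 10 microglia markers had lower estimates in Apoe-/- phagocytic cells, with a median of -0.29. In non-phagocytic cells 6 of 10 did, with a median of -0.02. For the sort, 8 of 10 were lower in phagocytic cells of Apoe-/- mice (median -0.33) and 6 of 10 in wild-type mice (median -0.16). The part of microglia content in the ER chaperone results was not tested.

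**Figure D3:**
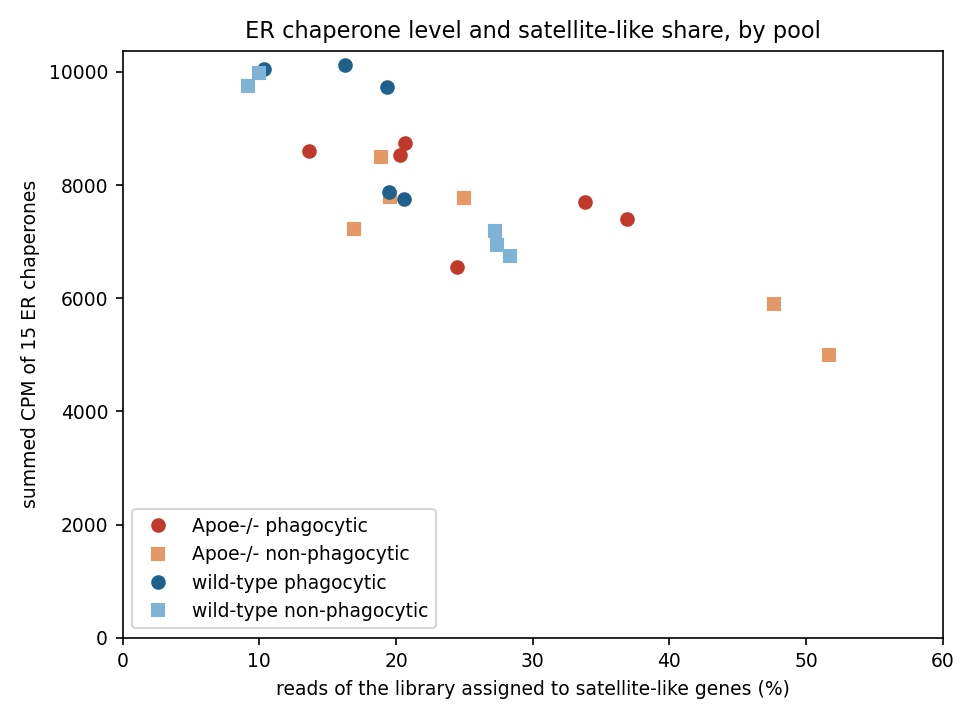
Summed CPM of the 15 ER chaperones (vertical axis) against the share of reads given to satellite-like genes in percent (horizontal axis), 1 point per pool, coloured by group. The pools with shares of 51.7% and 47.6% have the lowest sums, 5006 and 5897 CPM, and wild-type non-phagocytic pools fall into a pair near 9983 CPM and 3 pools at 6756 to 7188 CPM.

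The UPR and ERAD factors had no common direction. Of the 11 genes 6 had a positive estimate in each of the 4 comparisons, with median log2 fold changes of 0.08 for the sort in Apoe-/- mice, 0.02 for the sort in wild-type mice, 0.12 for genotype in phagocytic cells and 0.04 for genotype in non-phagocytic cells. On the FPKM scale (pseudocount 0.1) the genotype medians were -0.35 in phagocytic and -0.33 in non-phagocytic cells over the 10 factors tested, where the medians over all genes were -0.08 and -0.16. No factor was called in any of these comparisons. The sensors Ern1, Eif2ak3 and Atf6 were detected at low levels, and their estimates lay between -0.33 and 0.29 in the 5 comparisons. Trib3 and Ddit3, downstream of Atf4, had their highest estimates in the sort comparisons, where Atf4 mRNA itself had estimates of -0.03 ± 0.16 in Apoe-/- mice and 0.07 ± 0.18 in wild-type mice. Trib3 (chr2:152337422-152344032) had 3.03, 8.49 and 14.4 CPM in Apoe-/- phagocytic pools, against 0, 2.77 and 5.50 CPM in Apoe-/- non-phagocytic pools. Of the 6 phagocytic pools 5 lay above all non-phagocytic pools, and the log2 fold change was 1.66 ± 0.67 with an unadjusted p of 0.0196 and an adjusted p of 0.380. In wild-type mice Trib3 had 1.95, 8.69, 2.14, 2.99 and 7.99 CPM in phagocytic pools 1 to 5, against 0.705, 1.495, 1.86, 6.504 and 1.73 CPM in non-phagocytic pools 1 to 5. These ranges overlapped, and the log2 fold change was 0.95 ± 0.73 with an adjusted p of 0.856. It was 0.61 without wild-type phagocytic pool 2 and 1.64 without wild-type non-phagocytic pool 4. At a few reads per library, counting error alone is large for this gene.

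Ddit3, the transcription factor Chop that promotes cell death under lasting ER stress, had 25.9, 50.8 and 105 CPM in Apoe-/- phagocytic pools, against 17.6, 33.5 and 61.7 CPM in Apoe-/- non-phagocytic pools. Among wild-type pools it had 25.4, 41.2, 33.0, 65.02 and 48.9 CPM in phagocytic pools 1 to 5 and 19.0, 30.7, 35.8, 45.0 and 16.0 CPM in non-phagocytic pools 1 to 5. The ranges overlapped in both genotypes, with log2 fold changes of 0.68 ± 0.34 (adjusted p of 0.516) in Apoe-/- mice and 0.54 ± 0.37 (adjusted p of 0.808) in wild-type mice. They were 0.41 without Apoe-/- phagocytic pool 5 and 0.34 without wild-type phagocytic pool 4. Atf4 had 224, 257 and 289 CPM in Apoe-/- phagocytic, and 212, 261 and 313 CPM in Apoe-/- non-phagocytic pools, against 235, 249.7, 229, 224 and 245 CPM in wild-type phagocytic pools 1 to 5 and 299, 179, 241, 158 and 253 CPM in wild-type non-phagocytic pools 1 to 5. Its genotype estimates were 0.12 ± 0.17 in phagocytic and 0.21 ± 0.17 in non-phagocytic cells, with adjusted p-values of 0.925 and 0.999. Because Atf4 is controlled mainly at translation, these mRNA values do not measure its protein.

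Xbp1, the transcription factor activated by Ire1 (chr11:5520659-5525893), had 86.9, 225 and 282 CPM in Apoe-/- phagocytic pools, against 272, 329, 276, 303 and 268 CPM in wild-type phagocytic pools 1 to 5. Of the 6 Apoe-/- pools 5 lay below all wild-type pools, and pool 3 lay lowest by far. The log2 fold change was -0.46 ± 0.22 with an unadjusted p of 0.0489 and an adjusted p of 0.750. In non-phagocytic pools Xbp1 had 156, 226 and 279.8 CPM in Apoe-/- mice and 184, 275, 285, 394 and 268 CPM in wild-type mice, with a log2 fold change of -0.33 ± 0.22 and an adjusted p of 0.999. Herpud1, the most abundant of the class, had 211, 369.8 and 477 CPM in Apoe-/- phagocytic pools and 390.3, 493, 472, 381 and 298 CPM in wild-type phagocytic pools 1 to 5. In non-phagocytic pools it had 148, 346 and 390.5 CPM in Apoe-/- mice and 291, 397, 398, 307 and 289 CPM in wild-type mice, and the ranges overlapped throughout. Its genotype estimate in phagocytic cells was -0.21 ± 0.23, and its sort estimate in wild-type mice was 0.27 ± 0.24, with adjusted p-values of 0.891 and 0.888. The genotype estimate was -0.32 without Apoe-/- phagocytic pool 3 and -0.096 without Apoe-/- phagocytic pool 2. The ERAD genes Edem1, Sel1l and Syvn1, which select and ubiquitinate misfolded proteins, had estimates between -0.32 and 0.37 in the 4 comparisons of 2 groups.

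**Figure D4:**
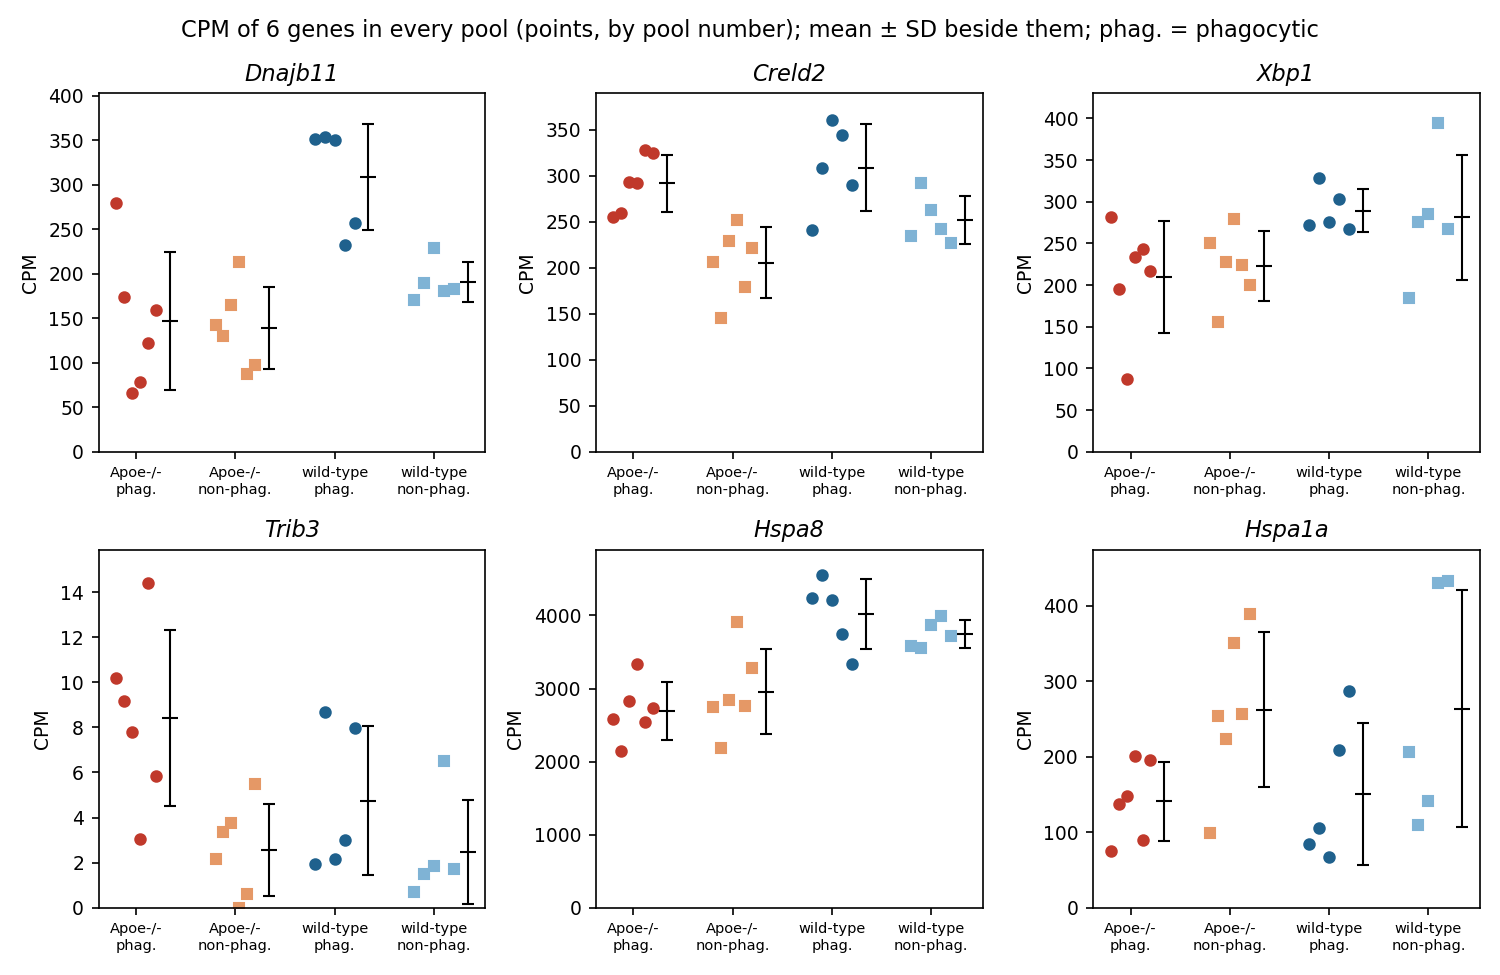
CPM of 6 genes in every pool, with the 4 groups along the horizontal axis, 1 point per pool and the mean ± SD beside the points. Creld2 in Apoe-/- phagocytic pools (255 to 328 CPM) does not overlap Apoe-/- non-phagocytic pools (145 to 252 CPM), and Hspa8 in Apoe-/- phagocytic pools (2141 to 3335 CPM) does not overlap wild-type phagocytic pools (3335 to 4549 CPM), although the nearest pools of these groups round to the same value.

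Hspa8 (chr9:40800984-40810087), which folds new proteins and uncoats clathrin-coated vesicles, was the heat shock gene with the clearest estimate. It had 2141, 2658 and 3335.2 CPM in the 6 Apoe-/- phagocytic pools, against 4238, 4549, 4213, 3750.4 and 3335.4 CPM in wild-type phagocytic pools 1 to 5. The groups did not overlap, which was so for 0.79% of all genes in one direction or the other, but Apoe-/- pool 4 and wild-type pool 5 were level. Apoe-/- over wild-type gave a log2 fold change of -0.58 ± 0.17, an unadjusted p of 0.00249 and an adjusted p of 0.426 by edgeR and of 0.0409 by DESeq2. Over all alternatives the adjusted p ran from 0.0409 to 0.746, and the log2 fold change from -0.73 to -0.49. In non-phagocytic pools Hspa8 had 2189, 2804 and 3912 CPM in Apoe-/- mice and 3578, 3553, 3875, 3993 and 3725 CPM in wild-type mice. There 5 of 6 Apoe-/- pools lay below all wild-type pools, and the log2 fold change was -0.34 ± 0.17 with an adjusted p of 0.999. The genotype estimates in the sorted fractions differed by -0.23 ± 0.24, with an interval of -0.72 to 0.25. Hspa8 has processed pseudogenes, among which the authors' quantification can divide reads.

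The sum over the 11 heat shock genes, of which Hspa8 is the largest part, was 5840.2 to 7401 CPM in Apoe-/- phagocytic pools against 7663 to 8909 CPM in wild-type phagocytic pools, with no overlap, and 5675 to 8119.8 CPM in Apoe-/- non-phagocytic pools against 7009 to 8136 CPM in wild-type non-phagocytic pools, with overlap. Without Hspa8 the sum over the other 10 genes was 3564 to 4508 CPM in Apoe-/- phagocytic pools against 4060 to 4385 CPM in wild-type phagocytic pools, so these groups overlapped too. Hsp90ab1, the next most abundant, had overlapping values between genotypes, with 2119, 2416 and 2686 CPM in Apoe-/- phagocytic and 1725, 2198 and 2468 CPM in Apoe-/- non-phagocytic pools. Among wild-type pools it had 2319, 2742, 2733, 2317 and 2514 CPM in phagocytic pools 1 to 5 and 2339, 2024, 2526, 1735 and 2063 CPM in non-phagocytic pools 1 to 5. Its genotype estimates were -0.06 ± 0.16 in phagocytic cells and 0.00 ± 0.16 in non-phagocytic cells. Its sort estimates were 0.17 ± 0.15 in Apoe-/- mice and 0.24 ± 0.17 in wild-type mice, with adjusted p-values of 0.795 and 0.812.

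**Figure D5:**
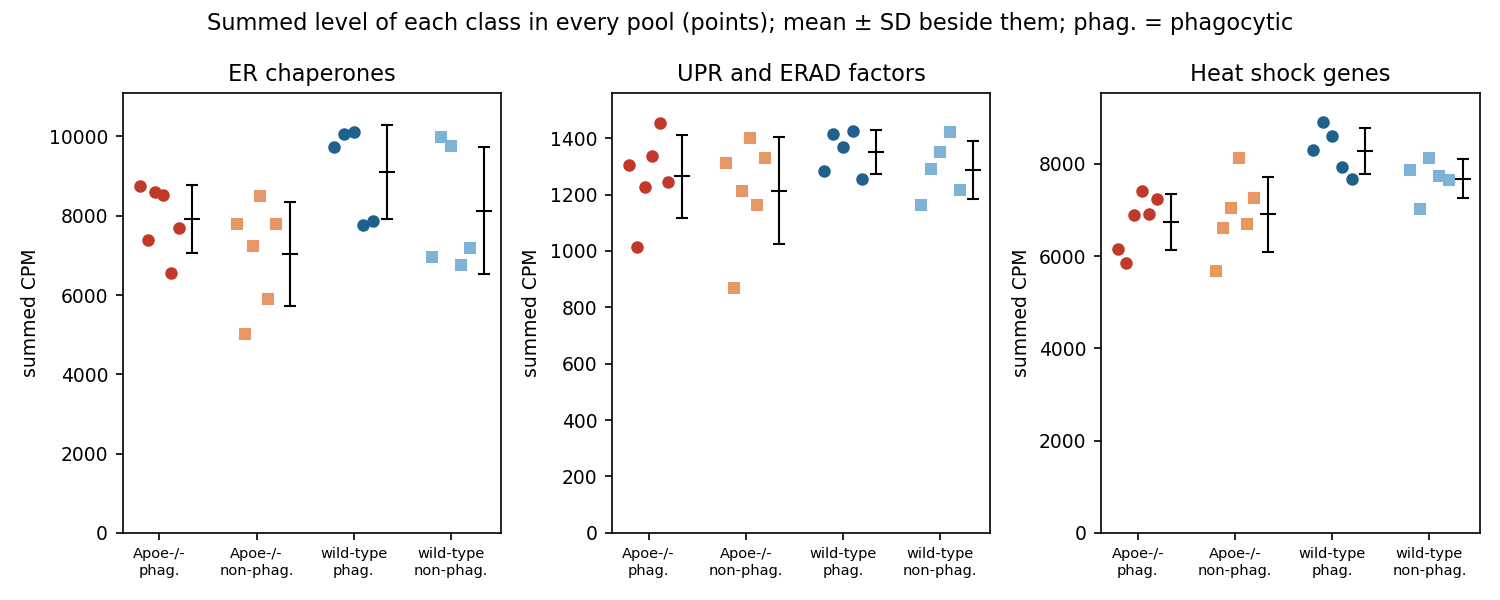
Summed CPM of the ER chaperones, the UPR and ERAD factors and the heat shock genes (panels) in every pool, with the 4 groups along the horizontal axis and the mean ± SD beside the points. Heat shock sums of Apoe-/- phagocytic pools (5840.2 to 7401 CPM) lie below those of wild-type phagocytic pools (7663 to 8909 CPM), though without Hspa8 they overlap (3564 to 4508 against 4060 to 4385 CPM), and the UPR and ERAD sums of the 4 groups overlap.

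Of Hspa1a, Hspa1b, Dnajb1 and Hsph1, named above as induced by Hsf1, the first 3 had negative sort estimates in both genotypes. Hspa1a and Hspa1b are near copies, so they do not count as separate genes here. Hspa1a (chr17:34969190-34972156) had 74.9, 142 and 201 CPM in Apoe-/- phagocytic pools, against 98.5, 256 and 389.9 CPM in Apoe-/- non-phagocytic pools. In wild-type mice it had 84.7, 106, 67.7, 209 and 287 CPM in phagocytic pools 1 to 5 and 206, 109, 141, 429.8 and 433 CPM in non-phagocytic pools 1 to 5. The ranges overlapped in both genotypes. The log2 fold changes were -0.90 ± 0.38 in Apoe-/- mice (unadjusted p of 0.0257, adjusted p of 0.409) and -0.81 ± 0.41 in wild-type mice (unadjusted p of 0.0622, adjusted p of 0.671). Over all alternatives the adjusted p ran from 0.0103 to 0.709 in Apoe-/- mice and from 0.0420 to 0.991 in wild-type mice. The lowest came with edgeR where pools of equal number were treated as pairs, which the labels do not state. Hspa1b and Dnajb1, the Hsp40 that works with Hspa1a, were also below 0, at -0.86 and -0.38 in Apoe-/- mice and -0.73 and -0.39 in wild-type mice. Dnajb1 had 93.6 to 129.6 CPM in wild-type phagocytic pools, below all wild-type non-phagocytic pools at 131 to 165 CPM, as groups did not overlap for 2.15% of all genes, with an adjusted p of 0.736. Hsph1, the Hsp110 that exchanges nucleotide on Hsp70, did not share that pattern, with sort estimates of 0.34 ± 0.20 in Apoe-/- mice and 0.01 ± 0.21 in wild-type mice. Its genotype estimate in non-phagocytic cells was -0.43 ± 0.20 (unadjusted p of 0.0456, adjusted p of 0.999), from 51.9, 78.6 and 118 CPM in Apoe-/- pools, against 101, 104, 95.0, 112 and 127 CPM in wild-type pools 1 to 5. The difference in its sort effect between the genotypes was 0.34 ± 0.29, with an interval of -0.24 to 0.92. Counted by pools above the non-phagocytic median, other heat shock genes did not all share the direction of Hspa1a. Dnaja1 lay above the non-phagocytic median in 4 of 6 Apoe-/- and 5 of 5 wild-type phagocytic pools. For Hsp90aa1 this was so in 4 of 6 and 4 of 5, and for Hspe1 in 5 of 6 and 5 of 5. For Hspd1 it was so in 1 of 6 and 4 of 5. The means differed from these counts in Apoe-/- mice. There Hsp90aa1 averaged 502 CPM in phagocytic against 519 CPM in non-phagocytic pools, and Hspe1 141 against 151 CPM. In wild-type mice the phagocytic means were the higher ones, at 472 against 450 CPM for Hsp90aa1 and 148 against 128 CPM for Hspe1.

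A list of 12 immediate early genes, all detected, had a lower mean sum in phagocytic than in non-phagocytic pools of both genotypes, and so did the mean of Hspa1a. Their summed level was 2408 to 4163 CPM in Apoe-/- phagocytic pools against 4763 to 6305 CPM in Apoe-/- non-phagocytic pools, and 3259 to 4684 CPM in wild-type phagocytic pools against 4562 to 6584 CPM in wild-type non-phagocytic pools. These ranges did not overlap in Apoe-/- mice and overlapped in wild-type mice. Sort estimates were negative for 10 of the 12 genes in Apoe-/- mice (median -0.61) and 11 of 12 in wild-type mice (median -0.28). By edgeR 3 of the 12 were called in Apoe-/- mice, all lower (0.492% of all genes), and 0 in wild-type mice (0.201%). Within a group the pools did not keep the same order in the immediate early sum and in Hspa1a. Wild-type non-phagocytic pool 2 had the highest immediate early sum of its group, 6584 CPM, and the lowest Hspa1a, 109 CPM. Apoe-/- phagocytic pool 4 was the highest of its group in both, at 4163 and 201 CPM. The part of immediate early genes in the Hspa1a values was not tested. As a class the heat shock genes had 4 of 11 positive sort estimates in Apoe-/- mice (median log2 fold change -0.10) and 7 of 11 in wild-type mice (0.07), and 3 of 11 positive genotype estimates in phagocytic cells (-0.09) and 6 of 11 in non-phagocytic cells (0.00). On the FPKM scale (pseudocount 0.1) the genotype medians were -0.16 in phagocytic and -0.19 in non-phagocytic cells, beside -0.08 and -0.16 over all genes. The mitochondrial pair Hspd1 (Hsp60) and Hspe1 (Hsp10) had estimates between -0.24 and 0.24 in all 4 comparisons. The annotated ends of that pair overlap on opposite strands, and whether the libraries keep strand is not given in the sources used here.

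Further genes of the same pathways were read from 3 wider lists. No gene of these lists was called by edgeR in any comparison, beside 0.492% of all genes for the sort in Apoe-/- mice and 0.201% in wild-type mice. The wider ER, integrated stress response and cytosolic lists held 65, 31 and 52 genes tested. Genes at an unadjusted p under 0.05 by edgeR numbered 7, 4 and 3 in these lists for the sort in Apoe-/- mice (9.92% of all genes). For the sort in wild-type mice they numbered 7, 2 and 5 (7.75%). They numbered 3, 4 and 1 for genotype in phagocytic cells (6.63%), and 2, 2 and 1 for genotype in non-phagocytic cells (3.8%). For the difference in the sort effect they numbered 2, 0 and 0 (2.43%). DESeq2 called 1 gene of each list for the sort in Apoe-/- mice (5.34% of the genes it gave an adjusted p) and 1 gene of the cytosolic list for the sort in wild-type mice (0.791%). Of all genes tested, 47.7% had a positive sort estimate in Apoe-/- mice and 49.2% in wild-type mice. In the wider ER list, 49 of 65 genes tested had a positive sort estimate in Apoe-/- mice and 48 of 65 in wild-type mice, with median log2 fold changes of 0.18 and 0.14. Its genotype estimates were negative for 48 of 65 genes in phagocytic and 42 of 65 in non-phagocytic cells, with medians of -0.09 in each. Those of all genes were negative for 50.5% and 50.2%. The 2 genes of that list with the smallest p were Txndc5, an ER disulfide isomerase, with 47.2 ± 12.2 CPM in Apoe-/- phagocytic and 85.5 ± 21.3 CPM in wild-type phagocytic pools (mean ± SD, adjusted p of 0.396), and the apoptosis gene Bax, with 131 ± 34.1 CPM in wild-type phagocytic and 81.4 ± 22.1 CPM in wild-type non-phagocytic pools (adjusted p of 0.301). In the list of the integrated stress response, which Atf4 directs, 22 of 31 genes had a positive sort estimate in Apoe-/- mice and 23 of 31 in wild-type mice. Its genotype estimates were negative for 21 of 31 genes in phagocytic cells (median -0.05) and 17 of 31 in non-phagocytic cells (median -0.09). Its leading genes were Nupr1, a stress-induced regulator of transcription, with 55.6 ± 11.9 CPM in Apoe-/- phagocytic and 36.3 ± 3.94 CPM in Apoe-/- non-phagocytic pools (adjusted p of 0.169), and the tryptophan tRNA ligase Wars, with 93.8 ± 16.5 and 60.6 ± 15.6 CPM in the same groups (adjusted p of 0.176). In the wider list of cytosolic chaperones and proteostasis genes, 32 of 52 had a positive sort estimate in Apoe-/- mice and 33 of 52 in wild-type mice. Its genotype estimates were negative for 37 of 52 genes in phagocytic cells (median -0.10) and 23 of 52 in non-phagocytic cells (median 0.01). The autophagy receptor Sqstm1 came closest to the threshold of all, with 391 ± 89.4 CPM in Apoe-/- phagocytic and 233 ± 29.5 CPM in Apoe-/- non-phagocytic pools (log2 fold change 0.75 ± 0.19, adjusted p of 0.0890). In wild-type mice Sqstm1 averaged 407 ± 127 CPM across phagocytic pools, against 210.0 ± 38.9 CPM across non-phagocytic pools (0.95 ± 0.21, adjusted p of 0.0506). The heme oxygenase Hmox1 had log2 fold changes of 1.58 ± 0.47 in Apoe-/- mice and 1.43 ± 0.51 in wild-type mice, with adjusted p-values of 0.168 and 0.417.

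The classes also differed in how much they varied between pools of the same group. The median SD on the log2 scale was 0.31 for the ER chaperones, 0.45 for the UPR and ERAD factors and 0.33 for the heat shock genes, beside 0.36, 0.55 and 0.45 for all genes within the level range of each class. Hsp90ab1 varied least (0.17) and Hspa1b most (1.34). With group means removed, the Pearson correlation between 2 genes over the 22 libraries had a median of 0.39 over the 105 pairs of ER chaperones, 0.20 over the 55 pairs of UPR and ERAD factors and 0.07 over the 55 pairs of heat shock genes. The highest was 0.86, between Hsp90b1 and Pdia3, and Hspa5 followed Pdia4 at 0.80 and Hspa8 at 0.79. The lowest was -0.84, between Hspa1b and Pdia3. These correlations are descriptions over pools that share libraries, depth and the satellite-like share. Outside the classes, the genes whose log2 CPM followed the mean of the ER chaperones most closely over the 22 libraries included Mmp2 (r of 0.89) and Mars (0.86). For the UPR and ERAD factors these were Shisa5 (0.80), Znfx1 (0.79) and Sertad1 (0.79), and for the heat shock genes Eif3a (0.73), Wdr74 (0.73) and Irak3 (0.72).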

How the data were processed

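For every library the authors deposited an estimated count of reads (expected counts, from their quantification) and a TPM value per transcript, per the file headers. A table of the authors lists genes by FPKM, with values over 5 kept per its first line. Salmon 1.4.0, R 4.0.3, DESeq2 1.30.1 and mm10 are named in the submitters' processing notes, without their roles. No strand setting, trimming or annotation is given in those notes. Salmon divides reads among similar transcripts, so counts of near copies are uncertain.

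Estimated counts and TPM were summed per gene with GENCODE M21 (GRCm38), and 0.118% to 0.262% of reads lay on 176 transcripts without a match. Gene IDs that share a symbol and overlap on the same strand (32) were summed, and other IDs that share a symbol were kept apart. Counts were rounded and tested with edgeR 4.0.16 in R 4.3.3: TMM scaling, filterByExpr by group (minimum count 10), 4 group means over 22 libraries, quasi-likelihood tests, Benjamini-Hochberg adjustment over 12407 genes and a threshold of 0.05. The common biological coefficient of variation was 0.425. CPM are TMM-scaled, and log2 CPM use a prior count of 2. Alternatives were RLE scaling, DESeq2 1.42.0, no filter, a minimum count of 30, fitting only the groups compared, the pool number as block, satellite-like genes left out or their share as covariate, limma 3.58.1 on log2 of FPKM plus 1 or 0.1, and leaving out each pool. The procedure was tested on simulated counts.

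Same-numbered pools are not stated to share animals, so the model of the report has no block. Genes given with values per pool were, per class, the 2 highest in TPM and the 3 with the smallest unadjusted p, and from the wider lists the 2 with the smallest p. Other genes, such as Dnajb1 and Hspa1b, were named after their values were seen. The genes and lists were chosen with earlier results of these data known. Cct6a of the wider lists was not analysed here. Of the genes most like a class in pattern, 1 is not reported here.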

Additional observations from a re-analysis of the deposited data

Results flagged for a closer look

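In 1 of 56 groups of pools examined for the genes given with values per pool, a pool stood far from the others by Dixon's test, which chance gives in about 1 in 20 groups. This was Trib3 in wild-type non-phagocytic pool 4, with 6.504 CPM against 0.705 to 1.86 CPM in the other wild-type non-phagocytic pools. Without it the sort estimate of Trib3 in wild-type mice was 1.64 on the log2 scale, against 0.95 with it. Wild-type non-phagocytic pool 4 also had the highest summed monocyte markers (1073 CPM) and photoreceptor markers (5748 CPM) of its group, whose part in the Trib3 value was not tested.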

How the results depend on the processing

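None of the 37 genes passed the threshold with the settings of the report, and a few alternatives called 1 gene. The pool number as replicate block called Hspa1a in both sort comparisons, so the count was 1 in Apoe-/- mice (log2 fold change -0.86, adjusted p of 0.0103) and 1 in wild-type mice (-0.80, 0.0420), over alternatives whose adjusted p ran up to 0.709 and 0.991. The block called 256 genes (2.06%) and 135 genes (1.09%) in all, against 61 and 25 without it. Same-numbered pools correlated at 0.0627 to 0.216 in Apoe-/- mice and at 0.0404 to 0.424 in wild-type mice. Apoe-/- pools 1, 2, 4, 5 and 6 and wild-type pools 4 and 5 correlated best with their own number. Wild-type pool 4 did so most clearly, at 0.424 against at most 0.0933 with another number. Apoe-/- pool 3 and wild-type pools 1, 2 and 3 correlated better with another number. The labels do not state a pairing, and it is not established. DESeq2 called 1 gene for the sort in Apoe-/- mice (Creld2) and 1 for genotype in phagocytic cells (Hspa8), and leaving out the filter called 1 there (Dnajb11). Leaving out each pool in turn gave 0 to 1 gene for genotype in phagocytic cells, the 1 without Apoe-/- phagocytic pool 1, and 0 in the other comparisons. Of the 48 estimates printed for a single member, 8 changed sign, all with a size under 0.1 in the report. Over all 148 estimates of the 37 genes in the 4 comparisons of 2 groups, 61 changed sign in at least 1 alternative, 23 of them with a size of 0.1 or more, up to 0.81 for Trib3 between genotypes in phagocytic cells. Pdia3 for genotype had a log2 fold change of 0.11 in phagocytic and 0.21 in non-phagocytic cells with the satellite-like share as covariate, and 0.12 in non-phagocytic cells without Apoe-/- non-phagocytic pools 2 and 5. Without these pools, the sort estimate in Apoe-/- mice was -0.081 for Dnajb11 and 0.096 for Atf4, the sort estimate of Hsph1 in wild-type mice was -0.0067, and the genotype estimate of Hsp90ab1 in non-phagocytic cells was -0.035. Atf4 for the Apoe-/- sort was 0.027 with the covariate and 0.042 with FPKM at either pseudocount. With FPKM at pseudocounts of 1 and 0.1, Canx for genotype in phagocytic cells was -0.072 and -0.073, Hsph1 for the wild-type sort was -0.048 and -0.050, and Hsp90ab1 for genotype in non-phagocytic cells was -0.23 with both. With no filter, Canx was at -0.013 and Hsp90ab1 at -0.014 in these comparisons. Hsph1 for the wild-type sort was also -0.0055 with RLE scaling, -0.0052 with DESeq2, -0.010 without satellite-like genes, -0.018 with the stricter filter, -0.016 with the replicate block and -0.019 with only the groups compared. Leaving out each pool in turn gave ranges of -0.23 to 0.23 for Dnajb11 and -0.091 to 0.016 for Atf4 in the Apoe-/- sort, -0.037 to 0.19 for Atf4 and -0.080 to 0.087 for Hsph1 in the wild-type sort, -0.046 to 0.091 for Canx between genotypes in phagocytic cells, and -0.068 to 0.081 for Hsp90ab1 and -0.16 to 0.15 for Pdia3 between genotypes in non-phagocytic cells. The number of ER chaperones with a positive estimate is given with the satellite-like share, and for the genotype difference in the sort effect it was 10 of 15 and, without Apoe-/- non-phagocytic pools 2 and 5 (chosen after seeing the data), 5 of 15, and with each pool left out 4 (without wild-type non-phagocytic pool 3) to 12 (without wild-type non-phagocytic pool 5) of 15. With each pool left out, sizes also moved without a change of sign: between genotypes in non-phagocytic cells Hspa5 ran from -0.47 to -0.18, Xbp1 from -0.45 to -0.18 and Pdia4 from -0.50 to -0.22, and for the sort Hspa1b ran from -1.09 to -0.41 in Apoe-/- mice and from -1.29 to -0.42 in wild-type mice. The other alternatives changed no member's call, and the cause of the changes was not tested.

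About 854677 to 2889980 reads per library lay outside satellite-like genes. The standard error of a log2 fold change had a median of 0.21 to 0.23 over the 37 genes in the 4 comparisons of 2 groups.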
